A study of Mus musculus with 24 samples.

Results

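Inhaled combustion particles that carry many environmentally persistent free radicals (EPFR) were compared with particles of the same mass concentration that carry few (EPFR lo), to see whether radical content shows in the miRNA of plasma. The comparison rests on 16 of the 24 mice, 8 exposed to EPFR and 8 to EPFR lo, and on the 566 mouse miRNA probes among the 626 probes of a NanoString nCounter mouse panel. The other 8 mice breathed filtered air and serve here as context. All mice were male C57BL/6J, an inbred laboratory strain, aged 20 weeks by the labels, which give no altered allele. Both particle types are labelled 250 µg per cubic meter for 4 h a day on 5 days, and plasma was taken after the last exposure (the methods give a somewhat higher mass, again the same for both types). By the methods both kinds of particle were built on iron oxide cores in a combustion reactor, and each mouse was assayed without pooling.

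A persistent free radical forms when an incompletely burned organic molecule binds a redox-active metal on a particle, where the unpaired electron is held long enough to be inhaled. Such particles are studied for oxidant stress in the lung lining and for impaired relaxation of blood vessels. miRNA are short RNA that pair through bases 2 to 8, the seed, with messenger RNA and lower its translation or stability. In plasma they travel in vesicles, in protein complexes or as spill from blood cells, so a plasma profile sums many tissues, of which blood cells give the most. A change in a plasma miRNA cannot tell apart more cells shedding it and more RNA shed by each.

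Mature sequences of miR-205 and miR-376a, of the leading blood cell miRNA with their seed partners and of 3 let-7 members are given 5′ to 3′ from RefSeq (GRCm38.p6), with the seed in capitals. miR-205, an miRNA of skin and airway epithelium, lies at chr1:193507503-193507524 on the minus strand, inside the long noncoding gene Mir205hg. miR-376a lies at chr12:109723824-109723844 on the plus strand, in the imprinted Dlk1-Dio3 cluster. miR-451, the leading miRNA of red blood cells, lies at chr11:78073186-78073207 on the plus strand. miR-16 is made from a copy at chr3:69009918-69009939 within Smc4 and from a copy at chr14:61631936-61631957 within Dleu2, and it shares its seed with miR-15a and miR-15b. The let-7 members are shown because they have 1 seed among them and their fold changes had opposite signs.
miR-205-5p: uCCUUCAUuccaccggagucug
miR-376a-3p: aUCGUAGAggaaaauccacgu
miR-451a: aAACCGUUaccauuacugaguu
miR-16-5p: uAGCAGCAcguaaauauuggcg
miR-15a-5p: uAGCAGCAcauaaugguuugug
miR-15b-5p: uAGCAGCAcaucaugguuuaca
let-7g-5p: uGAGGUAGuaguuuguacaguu
let-7i-5p: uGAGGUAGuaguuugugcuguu
let-7f-5p: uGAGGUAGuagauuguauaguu

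Counts of mouse miRNA summed to 8418 to 22152 per mouse in EPFR, 9083 to 30483 in EPFR lo and 8665 to 18568 in filtered air. Above background means here a mean raw count over all mice higher than 34.1, which is 2 SD over the average of the negative control probes, and 41 of 566 miRNA met it. Scaled counts were raw counts, with nothing subtracted, multiplied by a factor per mouse from its housekeeping probes after background subtraction. Scaling to the positive controls comes before that step and cancels in this factor. The 4 housekeeping probes had mean counts of 11.0 to 17.9, within the 11.0 to 29.0 of the negative controls. In 4 mice (EPFR lo mice 1, 2 and 4 and filtered air mouse 2) every housekeeping probe was at the floor after background subtraction, so that these mice have the same and highest factor, 1.66. The 4 probes for let-7a, miR-155, miR-34c and miR-543 read 1 in every mouse and carry no information.

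The negative controls, which bind no mouse RNA, were lower in EPFR mice. Their mean raw count was 12.75 to 17.4 in EPFR mice (median 15.6), 15.0 to 20.6 in EPFR lo mice (median 18.1) and 14.0 to 20.9 in filtered air mice (median 18.4), and all 8 EPFR mice lay below the EPFR lo median. The difference was -0.24 on the log2 scale (standard error 0.08, two-sided exact permutation p = 0.00824, 0.0741 after Benjamini-Hochberg adjustment over 9 measures of the mice). After housekeeping scaling 8 of 8 negative controls and 28 of 33 viral miRNA probes had lower means in EPFR than in EPFR lo, with medians of -0.21 and -0.22 on the log2 scale. With positive-control scaling 5 of 8 and 22 of 33 were lower, with medians of -0.11 and -0.12. Mouse miRNA moved alike, since 432 of 566 had a negative fold change and the median log2 fold change over all of them was -0.18, against -0.12 with the positive controls alone and -0.01 with TMM, a scaling that takes most miRNA as unchanged. Over the 41 miRNA above background the median edgeR log2 fold change was -0.01, with 20 positive and 21 negative. The control and viral probes were compared by another measure, the difference of mean log2 scaled counts. By that measure 27 of the 41 were lower and 14 higher (median -0.15), and 424 of the other 525 miRNA were lower (median -0.20). With positive-control scaling 23 of the 41 were lower and 18 higher (median -0.05). The part of the negative controls in the values of dim miRNA was not tested beyond a fit that takes them as a covariate. As the negative controls themselves differed between the groups, that fit cannot tell their part from that of the group.

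**Figure D1:**
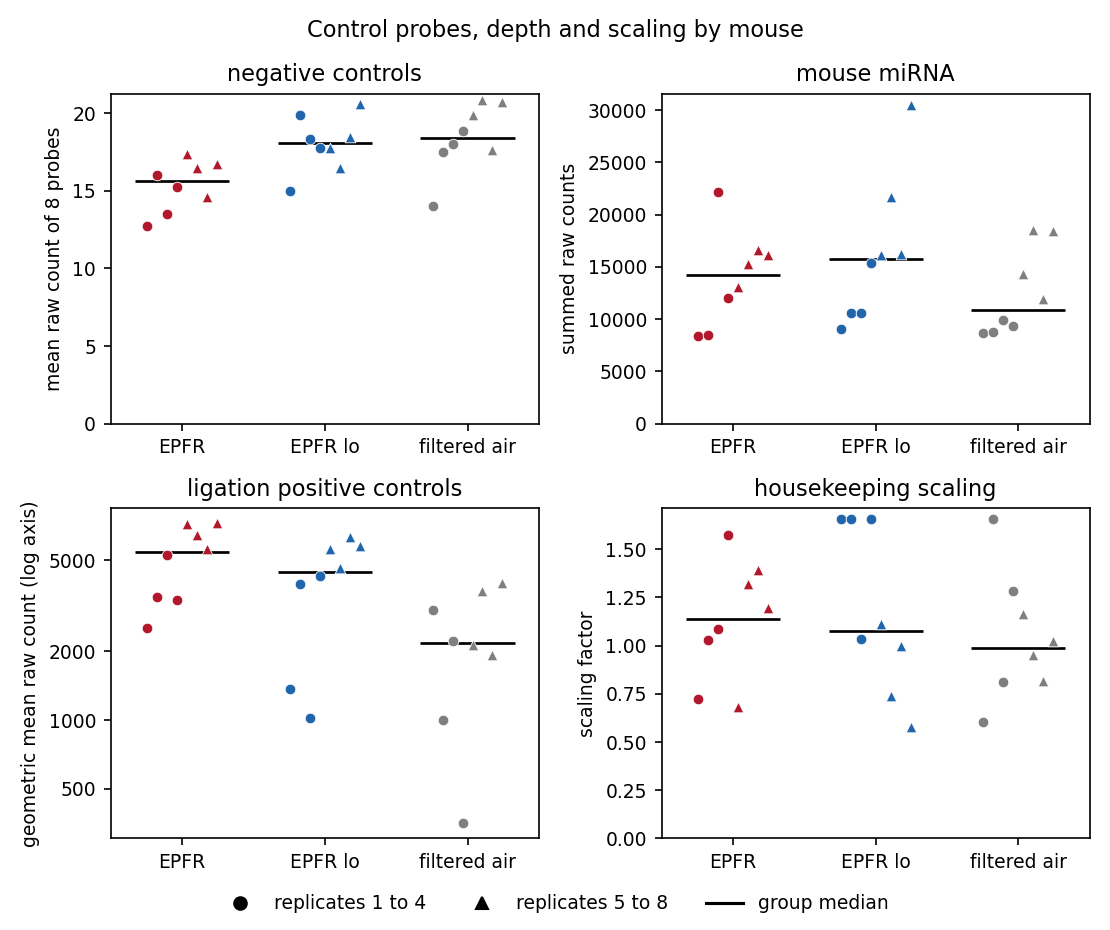
Control probes, depth and scaling of each mouse (points, circles for replicates 1 to 4 and triangles for replicates 5 to 8, line at the group median) for EPFR, EPFR lo and filtered air, in raw counts or as a factor, with the ligation controls on a log axis. The negative controls of all 8 EPFR mice lie below the EPFR lo median of 18.1, and the factor of 1.66 is shared by 3 EPFR lo mice and 1 filtered air mouse.

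None of the other 8 measures of the mice passed an exact permutation p of 0.05, though the viral miRNA probes (-0.21 on the log2 scale, exact permutation p = 0.0942) did without EPFR mouse 5 (-0.27, p = 0.0375) or EPFR lo mouse 1 (-0.27, p = 0.0410). The ligation positive controls, which report how well tags were joined to RNA, had geometric means of 2528 to 7251 counts in EPFR (median 5442), against 1018 to 6346 in EPFR lo (median 4457) and 353 to 3988 in filtered air (median 2172). The EPFR and EPFR lo mice differed in them by 0.46 on the log2 scale (standard error 0.41, exact permutation p = 0.290). miR-451 held 14.8% to 39.8% of the counts in EPFR mice, against 16.9% to 43.5% in EPFR lo mice. The log2 ratio of miR-451 to miR-23a, a common index of red blood cell lysis, was 4.66 to 6.92 in EPFR mice and 4.95 to 6.32 in EPFR lo mice (difference 0.13, exact permutation p = 0.661). Its denominator, miR-23a, had an edgeR log2 fold change of -0.40 in EPFR over EPFR lo (adjusted p = 0.955). Against filtered air miR-23a was at 0.94 in EPFR and 1.34 in EPFR lo (edgeR adjusted p = 0.460 and 0.0428). The ratio therefore need not follow lysis alone. A mouse had 19 to 70 miRNA above its own background limit in EPFR and 19 to 76 in EPFR lo (exact permutation p = 0.489).

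Of the 566 miRNA, 1 (0.177%) differed between EPFR and EPFR lo at an adjusted p under 0.05 in edgeR's quasi-likelihood test with Benjamini-Hochberg adjustment. It was miR-122, the main miRNA of liver cells, and it was lower in EPFR. At an unadjusted p under 0.05 there were 14 (2.47%), of which 11 (1.94%) were lower and 3 (0.53%) higher in EPFR. No miRNA (0%) had EPFR and EPFR lo mice that did not overlap. DESeq2 with the same scaling also called 1, but it was miR-205 and not miR-122, and it too had 14 at an unadjusted p under 0.05.

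**Figure D2:**
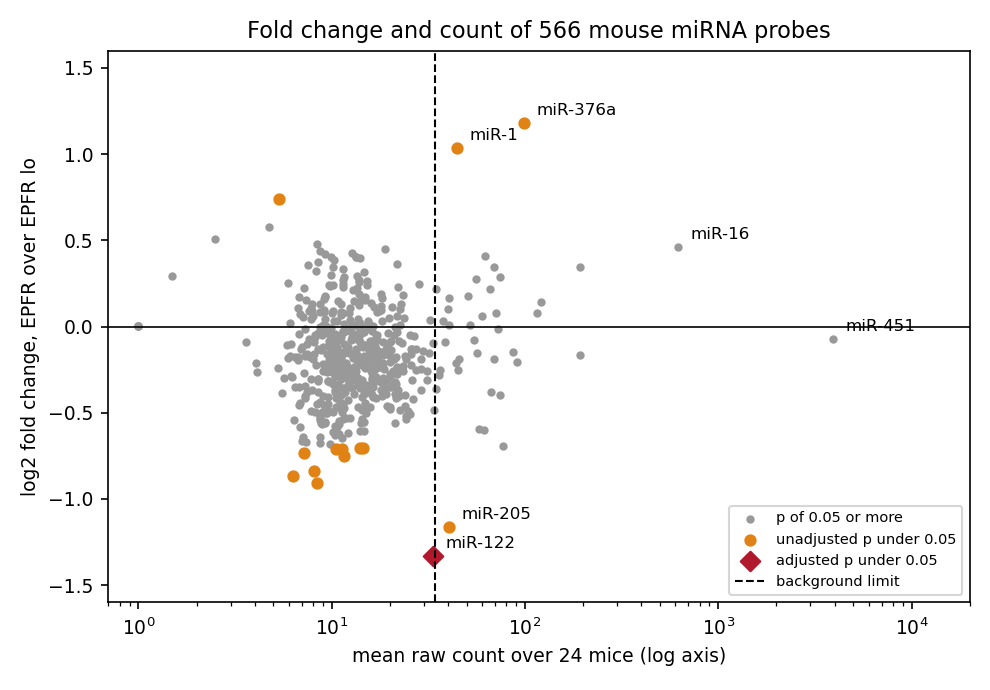
Log2 fold change of EPFR over EPFR lo (vertical axis) against the mean raw count over 24 mice (horizontal, log axis) for 566 mouse miRNA probes, with the background limit of 34.1 counts as a dashed line. Most points lie left of the limit and below 0, miR-122 (diamond) lies on the limit at -1.33, and the brightest miRNA, miR-451 and miR-16, lie near 0 and at 0.46.

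miR-122 had raw counts of 6 to 66 in EPFR (median 20), 15 to 116 in EPFR lo (median 61.5) and 7 to 35 in filtered air (median 14.5). Its scaled counts were 9.45 to 71.8 in EPFR (median 18.03), 15.5 to 126 in EPFR lo (median 58.8) and 4.22 to 40.8 in filtered air (median 20.1). The groups overlapped, as EPFR mouse 3 (71.8) stood above 5 of 8 EPFR lo mice and EPFR lo mouse 3 (15.5) among the EPFR mice, while 7 of 8 EPFR mice lay below the EPFR lo median. miR-122 fell to 25.4 ± 20.6 scaled counts in EPFR, against 65.0 ± 41.03 in EPFR lo (SD, n = 8 each). Its log2 fold change was -1.33 (standard error 0.33, 95% interval -1.98 to -0.68, edgeR adjusted p = 0.0369). By exact permutation of the same 16 mice the two-sided p was 0.0222, and 0.407 after adjustment over the 69 miRNA named by rule. Many of the 69 were named for a small p in this comparison, so that adjustment does not cover the search over all miRNA. Its mean raw count was 33.4, just under the background limit.

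The call for miR-122 depended on which mice were included and on the scaling. EPFR lo mice 1, 2 and 4, with scaled counts of 101, 103 and 126, were the highest of all 24 mice, and they are also the EPFR lo mice whose housekeeping probes lay at background. Without the 4 mice of that kind the log2 fold change was -0.60 (adjusted p = 1.00). Scaled to the positive controls alone it was -1.17 (adjusted p = 0.375), and with TMM -1.06 (adjusted p = 0.547). Leaving out 1 mouse at a time gave -1.77 to -1.13, with edgeR adjusted p from 9.44e-05 to 0.220. The call was kept in 12 of 24 such fits and ended without EPFR mouse 1, 2, 4, 5, 6 or 8, EPFR lo mouse 1, 2, 4 or 8, or filtered air mouse 1 or 2. Against filtered air 4 of 566 miRNA passed in EPFR and 4 in EPFR lo (0.707% each). In those comparisons, which share mice with this one, miR-122 was at 0.29 in EPFR (edgeR adjusted p = 0.991) and at 1.62 in EPFR lo, where it rose (edgeR adjusted p = 0.00102).

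The other liver miRNA did not pass. miR-192, made in liver and gut, was at -0.46 (edgeR adjusted p = 0.955), miR-148a at -0.19 and miR-194 at -0.04 on the log2 fold change scale. All 4 liver probes were negative, with a median of -0.33 beside -0.18 over all 566, and the median stayed negative with the positive controls (-0.30), TMM (-0.17) and the 100 brightest miRNA (-0.12). Summed over the 4 probes, raw counts were 56 to 202 in EPFR (median 113.5) and 56 to 371 in EPFR lo (median 169.5).

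miR-205 had the smallest exact permutation p of the 69 miRNA named by rule. Its raw counts were 18 to 32 in EPFR (median 25.5), 25 to 129 in EPFR lo (median 47.5) and 23 to 51 in filtered air (median 34), so that every EPFR mouse lay under the background limit. Scaled counts were 13.0 to 42.3 in EPFR (median 28.7), 37.2 to 106 in EPFR lo (median 58.3) and 21.1 to 54.7 in filtered air (median 31.4). All 8 EPFR mice lay below the EPFR lo median, and 6 of them below the lowest EPFR lo mouse. The means were 28.3 ± 10.2 in EPFR and 62.7 ± 23.0 in EPFR lo (SD, n = 8 each). The log2 fold change was -1.16 (standard error 0.33, 95% interval -1.81 to -0.52, edgeR adjusted p = 0.125). The exact permutation p was 0.000932, with 0.000155 the smallest that 8 against 8 mice allow, and 0.0643 after adjustment over the 69 named miRNA. As many of these were named for a small p in this comparison, 0.0643 does not cover the search over all miRNA.

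miR-205 missed the threshold with housekeeping scaling in edgeR, but it passed in 8 of 17 other ways of scaling, testing or choosing mice. The 8 include the fit of only the 41 miRNA above background, taken up below. The 17 leave out the fits added after seeing the data. Of those, miR-205 passed with replicate number as a block and the positive controls (edgeR adjusted p = 0.0149). Within the 41 it passed with the positive controls (edgeR adjusted p = 0.00240), and the fit with a covariate is given below. It passed in 0 of 24 fits that left out 1 mouse (edgeR adjusted p from 0.0591 to 0.406). Nor did it pass with limma on the deposited normalized counts (adjusted p = 0.0755 with 1 added, 0.0660 with 10). With only the 16 particle mice it did not pass either (edgeR adjusted p = 0.198). With the positive controls alone it was at -1.20 (edgeR adjusted p = 0.0142), with TMM at -1.06 (edgeR adjusted p = 0.0173), and with DESeq2 at -1.17 (adjusted p = 0.0127). Its place among the 41 miRNA above background came from EPFR lo, with mean raw counts of 25.0 in EPFR, 61.8 in EPFR lo and 34.1 in filtered air, so a test within the 41 adds no support. With the mean of the negative controls as a covariate, an alternative added after seeing the data, it was at -0.93 (edgeR adjusted p = 0.999), and without the 4 mice at the housekeeping floor at -1.05 (edgeR adjusted p = 1.00). Within replicates 1 to 4 the log2 fold change was -1.38 and within replicates 5 to 8 it was -0.99. Against filtered air, where the same mice enter, miR-205 was at -0.29 in EPFR and 0.87 in EPFR lo (edgeR adjusted p = 0.991 and 0.388).

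**Figure D3:**
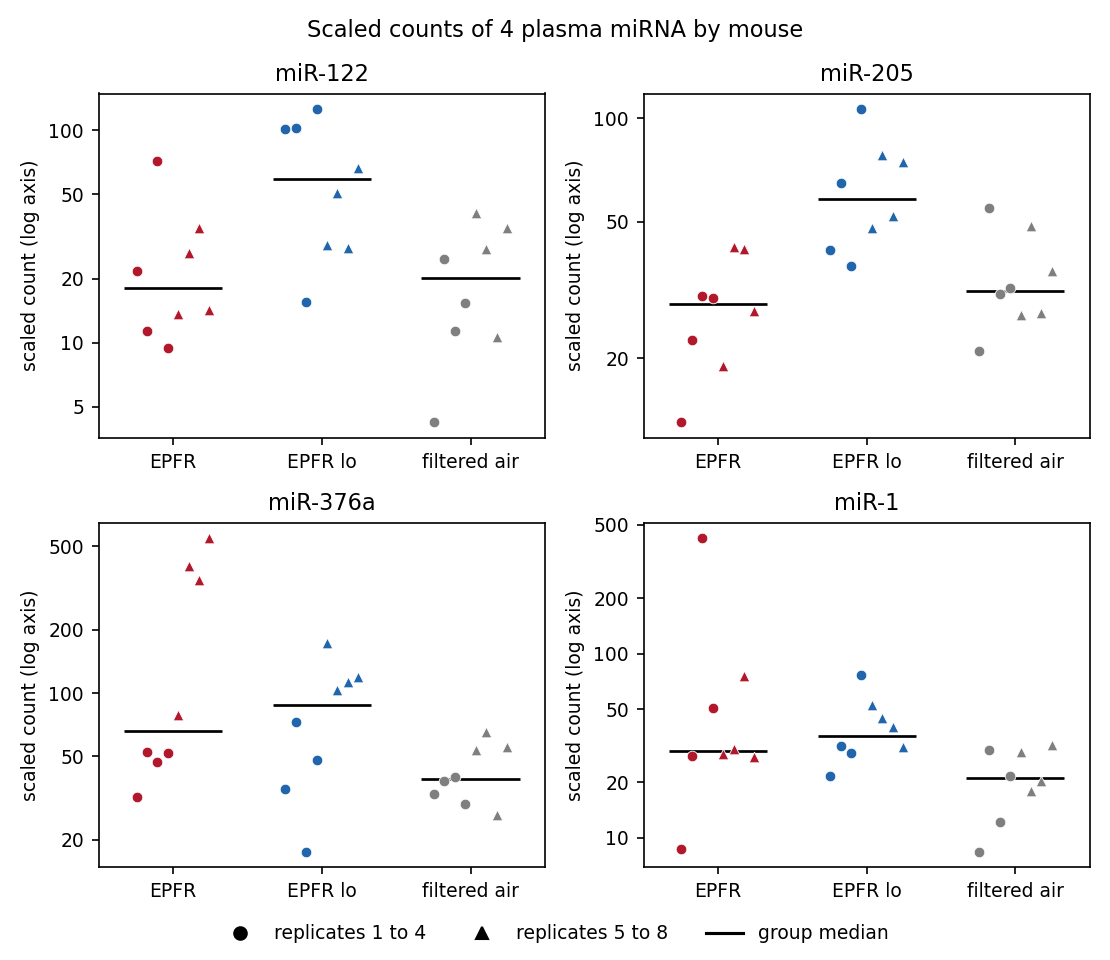
Scaled counts (log axes) of miR-122, miR-205, miR-376a and miR-1 in each mouse, for EPFR, EPFR lo and filtered air, with circles for replicates 1 to 4, triangles for replicates 5 to 8 and a line at the group median. For miR-205 all 8 EPFR mice lie below the EPFR lo median of 58.3, while for miR-376a and miR-1 the EPFR medians of 65.7 and 29.5 lie below those of EPFR lo and the high values come from 3 mice and from 1.

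**Figure D4:**
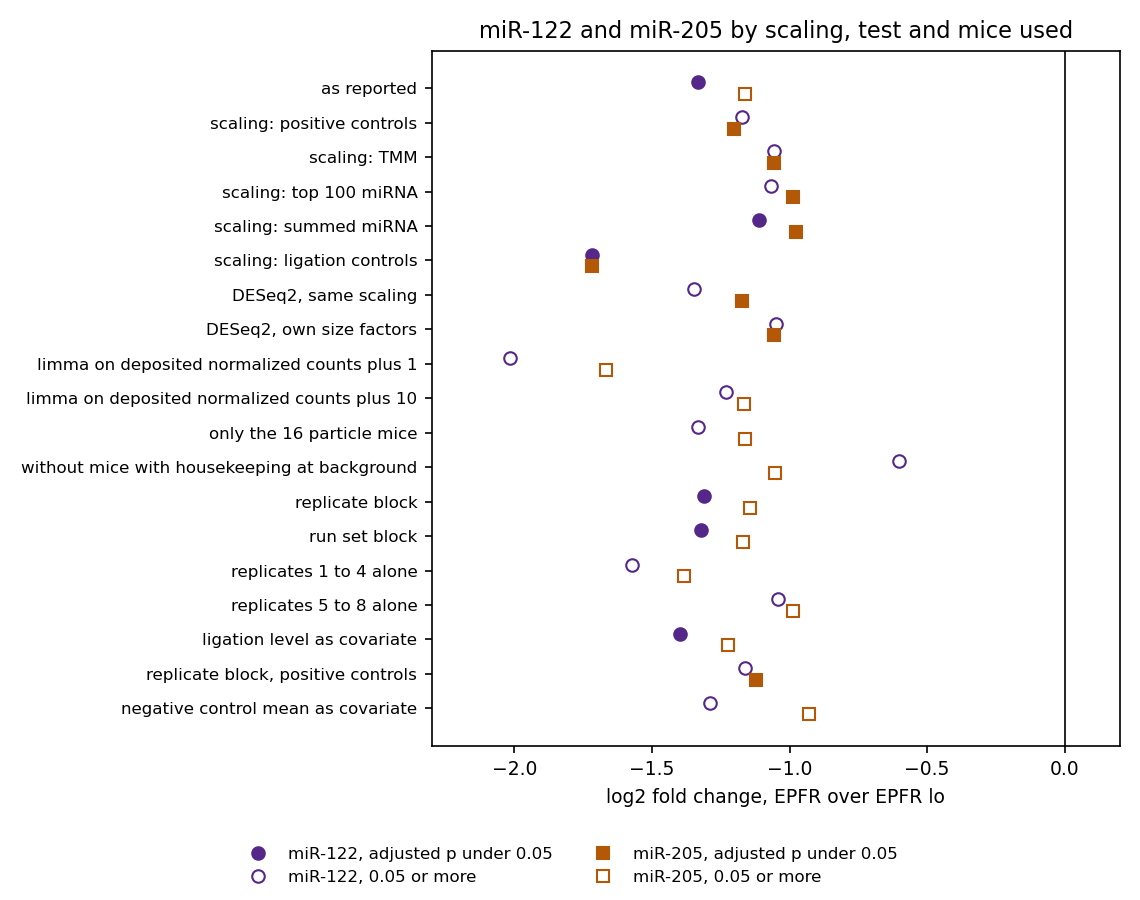
Log2 fold change of EPFR over EPFR lo (horizontal axis) for miR-122 (circles) and miR-205 (squares) under each scaling, test or choice of mice (rows), filled where the adjusted p is under 0.05. Both stay below 0 in every row, from -2.02 to -0.60 for miR-122 and from -1.72 to -0.93 for miR-205, and the filled symbols change between the rows.

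The positive fold changes of largest size came from single mice or a few. miR-376a had scaled counts of 31.9 to 546 in EPFR (median 65.7) and 17.6 to 174 in EPFR lo (median 88.1), with 26.2 to 65.6 in filtered air (median 38.9). EPFR mice 6, 7 and 8, at 404, 348 and 546, stood above every EPFR lo mouse, and the other 5 EPFR mice lay below the EPFR lo median. The log2 fold change was 1.18 (standard error 0.39, edgeR adjusted p = 0.430), and the exact permutation p of the mean log2 difference, 0.69, was 0.331. It was 0.08 in replicates 1 to 4 and 1.43 in replicates 5 to 8, and the difference between these sets of mice did not pass over all miRNA (edgeR adjusted p = 0.361).

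miR-1, which belongs to heart and skeletal muscle, had scaled counts of 8.69 to 421 in EPFR (median 29.5) and 21.6 to 76.3 in EPFR lo (median 35.7). EPFR mouse 3 alone, at 421, was above every other mouse. The log2 fold change was 1.03 (standard error 0.35, edgeR adjusted p = 0.430) with that mouse and -0.23 (edgeR adjusted p = 0.941) without it, and with DESeq2's own size factors it was -0.14. With all mice the mean log2 difference was 0.14 (exact permutation p = 0.832). EPFR mouse 3 was also highest for miR-133a, the other main muscle miRNA, at 110 scaled counts where the other EPFR mice ran from 7.97 to 25.2. Its excess was not confined to muscle miRNA. Among EPFR mice it had the largest summed miRNA count, 22152, and the highest miR-451 and miR-16, but not the highest miR-376a or let-7i. The mean log2 difference of miR-133a was -0.05 (exact permutation p = 0.932), against an edgeR log2 fold change of 0.45. Of 7 striated muscle probes 3 were positive and 4 negative, with a median log2 fold change of -0.13 (-0.03 with the positive controls, but 0.07 with TMM). Besides miR-1 and miR-133a (0.45) these were miR-208a (0.03), miR-206 (-0.13), miR-208b (-0.17), miR-133b (-0.39) and miR-499 (-0.41).

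The remaining miRNA at an unadjusted p under 0.05 were dim, with mean raw counts from 5.33 for miR-1971 to 14.5 for miR-423-3p, within or under the range of the negative controls. miR-127, from the Dlk1-Dio3 cluster, was at 6.01 ± 2.37 scaled counts in EPFR and 10.9 ± 5.92 in EPFR lo (SD, n = 8 each), or -0.91 as a log2 fold change. miR-200a, an miRNA that keeps epithelial cells epithelial, was at 12.4 ± 5.53 scaled counts in EPFR and 20.0 ± 6.47 in EPFR lo, or -0.71 as a log2 fold change. miR-2132 (-0.86), miR-450b-3p (-0.84), miR-149 (-0.75), miR-679 (-0.73), miR-711 (-0.71), miR-201 (-0.71) and miR-423-3p (-0.70) were lower too, and miR-1971 (0.74) was higher, each with an edgeR adjusted p of 0.955. None of these 10 passed, and with the negative controls as a covariate the 20 miRNA at an unadjusted p under 0.05 were 18 higher and 2 lower. The negative controls also differed between the groups, so this fit cannot tell their part from that of the group.

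For the miRNA above background, the intervals give the differences allowed under the edgeR model, which shares its estimate of spread among miRNA. They do not measure the scatter of the 8 mice alone. miR-376a, with log2 SDs of 1.63 in EPFR and 1.07 in EPFR lo, had a standard error of 0.39. miR-451, with smaller SDs of 1.22 and 0.60, had a standard error of 0.71. Among the 41 above background, the 95% interval lay inside a 2-fold change in either direction for 27, and it left out 0 for 3 (miR-205, miR-376a and miR-1). Of these, miR-205 was among the 41 through the EPFR lo mice and miR-1 through EPFR mouse 3, without which its mean raw count was 29.8, so the count of 3 is a description only. Their median standard error was 0.35 on the log2 scale. Scaled counts scattered more among EPFR than among EPFR lo mice for 34 of the 41 (median SD of 0.90 and 0.56 on the log2 scale), but for only 22 of 41 with the positive controls as scaling. Over the whole profile of these 41, the ratio of between-group to within-group squared distance (pseudo-F) was 0.79, with an exact permutation p of 0.458.

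**Figure D5:**
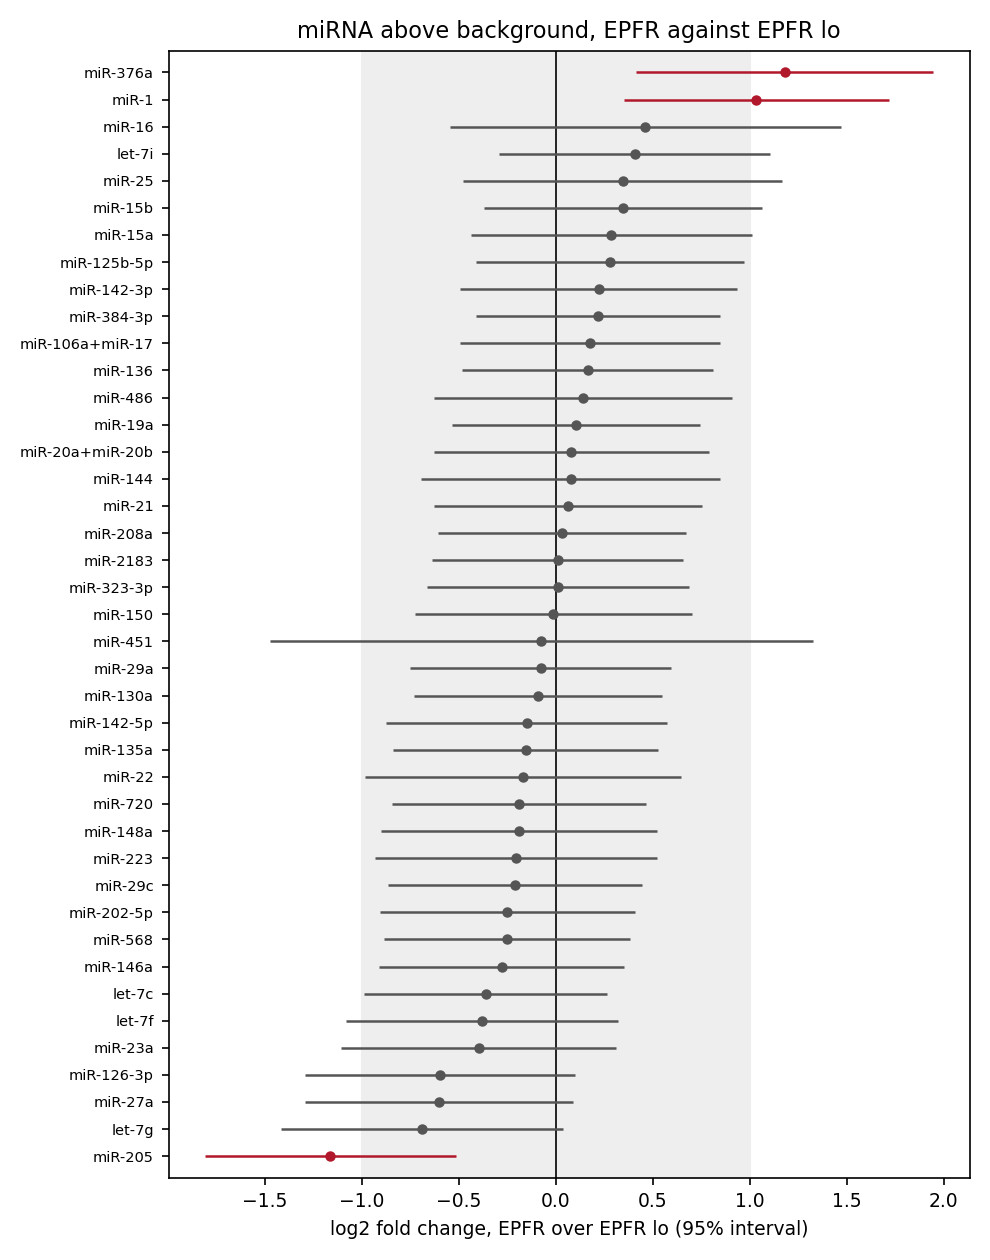
Log2 fold change of EPFR over EPFR lo (points) with its 95% interval from the edgeR model (lines) for the 41 miRNA above background. The gray band marks a 2-fold change in either direction. The interval leaves out 0 for miR-205, miR-376a and miR-1 (red), 27 intervals lie inside the band, and that of miR-451 runs from -1.47 to 1.33.

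The abundant blood cell miRNA had intervals that held 0 and were wide. miR-451 had scaled counts of 1295 to 9589 in EPFR (median 5053), 2616 to 7945 in EPFR lo (median 4702) and 728 to 6609 in filtered air (median 2039). Its log2 fold change was -0.07 (95% interval -1.47 to 1.33), so that in the edgeR model a 2-fold difference either way could not be told from none. miR-16 had 143 to 1748 scaled counts in EPFR (median 1221) and 179 to 1447 in EPFR lo (median 736), a log2 fold change of 0.46 (95% interval -0.55 to 1.47). Its seed partners miR-15b and miR-15a were at 0.34 and 0.29 on the same scale. miR-144, made with miR-451 from 1 transcript, was at 0.08, and miR-486, another red cell miRNA, at 0.14.

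Red blood cell probes split evenly, 5 positive and 5 negative, with a median log2 fold change of 0.03 (-0.01 with the positive controls, 0.12 with TMM). Platelet miRNA were likewise 4 positive and 4 negative (median -0.05, but 0.10 with TMM), and among them miR-126-3p, which endothelium also makes, was at -0.60 (95% interval -1.29 to 0.10) and miR-223 at -0.21. Of 9 leukocyte probes 2 were positive (1 of them the uninformative miR-155) and 7 negative (median -0.21, and -0.05 with TMM), including miR-142-3p at 0.22, miR-150 at -0.01 and miR-342-3p, a lymphocyte miRNA, at -0.52. None of these 3 lists had a member at an unadjusted p under 0.05, where all miRNA had 2.47%.

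Vessel wall miRNA bear on the vascular question of the study. Of 7 probes 1 was positive and 6 negative, with a median of -0.23 (-0.08 with TMM) beside -0.18 over all 566. miR-221, which acts on smooth muscle growth, was at -0.58, its cluster partner miR-222 at 0.04, and the smooth muscle miRNA miR-143 and miR-145 at -0.25 and -0.19. No member of this list passed, adjusted or not, where 2.47% of all miRNA had an unadjusted p under 0.05. A list of 7 probes could hold none at that share. Summed raw counts of the list were 77 to 203 in EPFR (median 122.5) and 76 to 268 in EPFR lo (median 169).

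Lung and airway epithelium, the first tissue the particles meet, was represented by 10 probes, 1 positive (the uninformative miR-34c) and 9 negative, and their median of -0.18 equalled that of all miRNA (0.02 with TMM). The 2 at an unadjusted p under 0.05, where all miRNA had 14 of 566 (2.47%), were miR-205 and miR-200a, described above. Both were lower in EPFR. The other members of the miR-200 family were nearer to 0: miR-200b at -0.13, miR-141 at -0.09, miR-429 at -0.09 and miR-200c at -0.07. miR-34b-3p and miR-449a, of ciliated cells, were at -0.36 and -0.24. miR-205 was the list's only member above background.

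Let-7 members, which restrain growth genes, were 2 positive (let-7i and the uninformative let-7a) and 7 negative (median -0.22, and -0.08 with TMM). let-7g had scaled counts of 15.9 to 165 in EPFR (median 64.8) and 47.5 to 179 in EPFR lo (median 112.9), a log2 fold change of -0.69 (95% interval -1.42 to 0.04). let-7i, with the same seed, had 17.4 to 183 in EPFR (median 108.5) and 52.9 to 107 in EPFR lo (median 64.1), a log2 fold change of 0.41 (95% interval -0.29 to 1.11). Both intervals held 0, and the difference between them was not tested. let-7f (-0.38) and let-7c (-0.36) were also negative.

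Of the miR-17-92 family, growth-promoting miRNA abundant in blood, 6 of 11 probes were positive and 5 negative (median 0.08, but -0.01 with the positive controls), led by miR-18b at 0.48 and miR-25 at 0.35 and ending with miR-106b at -0.48. Among the 51 Dlk1-Dio3 probes 13 were positive and 38 negative (median -0.19, and -0.05 with TMM). At an unadjusted p under 0.05, where all miRNA had 14 of 566 (2.47%), 1 was higher (miR-376a) and 2 were lower (miR-127 and miR-679). The 33 Sfmbt2 cluster probes, of which many are close in sequence and may share targets on the panel, were 5 positive and 28 negative (median -0.25, and -0.06 with TMM). None of the 33 was above background, and the 525 miRNA at or under background had an edgeR median of -0.19. The viral probes had a median of -0.22 by the other measure, the difference of mean log2 scaled counts. Neural miRNA were 2 positive and 4 negative (median -0.21), and none was above background.

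miRNA tied to oxidants were considered because the particles differ in radicals. Of 7 oxidant and hypoxia response probes 2 were positive (miR-21 and the uninformative miR-155) and 5 negative (median -0.09, but 0.06 with TMM), with miR-21, raised in many injured tissues, at 0.06 and the hypoxia miRNA miR-210 at -0.31. Of 6 miRNA that target Nfe2l2, the gene of the antioxidant regulator NRF2, 2 were positive and 4 negative (median -0.21, and -0.01 with TMM), with miR-27a lowest at -0.60 (95% interval -1.29 to 0.09). No member of either list had an unadjusted p under 0.05, where all miRNA had 2.47%. Lists of 7 and 6 probes could hold none at that share.

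The lists tied to the aryl hydrocarbon receptor (AhR) of alveolar type-II cells, a receptor for aromatic combustion products, came from other mice of the study. By the paper, EPFR raised or lowered the first 2 lists in a way that depended on AhR in these cells. The baseline list was reduced in filtered air in mice whose type-II cells lack AhR. Those mice were of both sexes and had no EPFR lo group for miRNA, so directions are not compared like for like. The 6 of the raised list were 2 positive and 4 negative (median -0.11, but 0.07 with TMM), with miR-92b at 0.30 and miR-125b-5p at 0.28 highest. The 11 of the lowered list were 1 positive and 10 negative (median -0.10, but 0.08 with TMM), from -0.41 for miR-680 to 0.01 for miR-878-3p. The 5 of the baseline list were 2 positive and 3 negative (median -0.21, and -0.09 with TMM), from -0.86 for miR-2132 to 0.48 for miR-18b. No member of the raised or lowered list had an unadjusted p under 0.05, where all miRNA had 2.47%. At that share 17 members could hold none, and 1 of the 17, miR-125b-5p, was above background. In the baseline list only miR-2132 had an unadjusted p under 0.05.

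The raw table holds replicates 1 to 4 of every group before replicates 5 to 8, and the positive controls averaged 1278 ± 99.9 and 1533 ± 133 counts in these sets (SD, n = 12 each). By the methods several batches were run, and no source used here says which mice were in which. Among replicates 1 to 4 there were 48 miRNA at an unadjusted p under 0.05 in edgeR, 2 higher and 46 lower (median of all miRNA -0.54), and among replicates 5 to 8 there were 22, with 18 higher and 4 lower (median 0.16). No miRNA passed in either set. EPFR lo mice 1, 2 and 4, at the housekeeping floor with the factor of 1.66, are all in replicates 1 to 4. Unscaled summed miRNA counts of EPFR against EPFR lo differed by 0.07 on the log2 scale in replicates 1 to 4. In replicates 5 to 8 they differed by -0.42, so unscaled sums and scaled medians had opposite signs in both sets. The part of the scaling in these directions was not tested. When the difference between the sets was tested in edgeR, 0 miRNA passed after adjustment and 74 had an unadjusted p under 0.05. With the set as a block, miR-122 was called (-1.32, edgeR adjusted p = 0.0149) and miR-205 was not (-1.17, edgeR adjusted p = 0.0791).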

How the data were processed

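Plasma miRNA of 24 mice was counted on the nCounter mouse panel after tag ligation. The authors deposited raw counts per probe, unscaled. A second table deposited by the authors holds the nSolver output on a normalized signal scale, made by background subtraction and by scaling to positive controls and to Actb, B2m, Gapdh and Rpl19. The authors' fold changes and p-values were not used. edgeR 4.0.16 under R 4.3.3 was run on the raw counts of all 24 mice, fitting group alone by quasi-likelihood, with the housekeeping factors (in which the positive-control step cancels) as offsets, no filter, and Benjamini-Hochberg adjustment over 566 miRNA. For single miRNA and measures of mice the 12870 ways to divide 16 mice into 8 and 8 gave an exact, two-sided permutation p on log2 values, with a pseudocount of 1 for miRNA. Lists are given by counts and medians, with no test.

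Depth was 8418 to 30483 counts per mouse, and dim miRNA carry the larger counting error. Alternatives covered scaling, DESeq2 1.42.0, limma 3.58.1 on the deposited normalized counts, filters, blocks, covariates and leaving out mice, of which 3, and the test of the difference between replicates 1 to 4 and 5 to 8, were added after seeing the data. Members and lists were chosen with earlier results of these data known. A miRNA was named by rule where it passed an adjusted p of 0.05 in EPFR against EPFR lo or against filtered air, was among the 10 above background with the smallest p, the 5 higher or lower with the smallest p or the 10 brightest, among the 3 of its list with the smallest p, on an AhR list, or miR-451 or miR-23a. Other miRNA are list members or members of the count of 14 at an unadjusted p under 0.05, and were picked after their values were seen. Panel names were matched to RefSeq for 25 of 25 miRNA looked up. Tests assume separate mice, as the methods state. The RefSeq assembly is GRCm38.p6.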

Additional observations from a re-analysis of the deposited data

Results flagged for a closer look

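A mouse that stood apart from the other 7 of its group was looked for in 156 sets of 8 values (69 miRNA and 9 measures in each particle group). Dixon's ratio was used, for miRNA on log2 scaled counts, and 12 were found, where chance gives about 1 in 20 of the sets. The sets share mice and are not independent. Values below are scaled counts before the log. In EPFR, mouse 3 was high for miR-133a (110 scaled counts), mouse 7 low for miR-137 (1.39), mouse 5 low for miR-34a (2.72), and mouse 1 low for miR-1906 (4.35), miR-1939 (2.9), miR-128 (2.17) and miR-509-5p (2.9). In EPFR lo, mouse 4 was high for miR-499 (46.4), miR-25 (428) and miR-125b-5p (201), and mouse 8 low for miR-1906 (2.3) and miR-505 (4.61). EPFR lo mouse 4 is one of the mice whose housekeeping probes lay at background, and all of the low values are of miRNA at or under background. The low values were in EPFR mice 1, 5 and 7 and EPFR lo mouse 8, with housekeeping factors of 0.72, 0.68, 1.39 and 0.58. The part of the factors in these values was not tested.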

How the results depend on the processing

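Against the 1 miRNA called (adjusted p under 0.05), 2 were called when scaling to summed miRNA and 2 with the ligation controls, each time miR-122 and miR-205. There were 0 with limma on the deposited normalized counts plus 1 and 0 plus 10, 0 with only the 16 particle mice, 0 without the mice at the housekeeping floor, 0 in replicates 1 to 4, 0 in replicates 5 to 8 and 0 with the negative controls as a covariate. Leaving out 1 mouse gave 0 to 1. Against 14 at an unadjusted p under 0.05, there were 40 with the positive controls, 37 with TMM, 27 with the top 100 miRNA, 102 with the ligation controls (0 higher and 102 lower), 30 with DESeq2's size factors, 3 of the 41 above background, 9 without the mice at the floor, 48 in replicates 1 to 4 and 22 in replicates 5 to 8. Leaving out 1 mouse gave 8 to 27, with 8 without EPFR mouse 1 or 5, 27 without EPFR mouse 6, 25 without 7 and 23 without 8, and 23, 22 and 27 without EPFR lo mouse 3, 6 or 8. Of the 14, 3 were higher, against 21 of 37 with TMM, 19 of 27 with the top 100 and 17 of 30 with DESeq2's size factors. Of the combinations added after seeing the data, the positive controls with only miRNA above background gave 2, and the replicate block with the positive controls 49.

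Replicate numbers were not taken to pair the mice. Same-numbered EPFR and EPFR lo mice correlated at -0.25 to 0.61 (median 0.26, against -0.04 for other numbers), over 0.1 in 6 of 8 pairs and not in all, and 2 of 8 EPFR mice correlated best with their own number. With the replicate block 1 miRNA was called and 15 had an unadjusted p under 0.05, and miR-122 was at -1.31 (edgeR adjusted p = 0.0397), miR-205 at -1.14 (0.0764) and miR-1 at 0.26.

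miR-1 was negative with DESeq2's size factors (-0.14) and in replicates 5 to 8 (-0.074), and ran from -0.23 to 1.21 when 1 mouse was left out. miR-1971 was negative with limma (-0.012 with 1 added, -0.0027 with 10) and in replicates 5 to 8 (-0.15). Of 2942 further values of the 69 named miRNA, 212 changed sign where the reported interval held 0. The negative controls differed by -0.16 with positive-control scaling, -0.30 in replicates 1 to 4 and -0.17 in replicates 5 to 8, past the exact permutation threshold in none of the 3, and by -0.27 to -0.20 when 1 mouse was left out. The viral probes differed by -0.27 to -0.16 when 1 mouse was left out and passed without EPFR mouse 5 or EPFR lo mouse 1. The profile distance passed in no alternative (exact permutation p from 0.251 to 0.593). The causes were not tested. At this depth 525 of 566 miRNA had mean counts at or under the background limit, a level that negative controls also reach.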

Other observations

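No viral miRNA probe had a mean above the background limit, the highest being 22.2 counts.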
